A study of Homo sapiens with 15 samples.

Results

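The nucleoporin genes are 30 genes that encode the proteins of the nuclear pore, taken from a fixed list of names. Their introns were those whose gene name in the deposited intron tables, split at commas, was on that list. This gave 649 of the 111143 introns listed in any of 4 tables, with 557, 573, 574 and 572 listed for KO-1 to KO-4. Of the 649, 4 also carried the name of a 2nd gene. Polyadenylated RNA was measured in HCT116, a human colon cancer cell line, in 5 groups of 3 libraries. The groups were wild-type cells (WT) and 4 clones, KO-1 to KO-4, all labelled bktRNA1-/-. All groups were grown in the same medium with no other agent named. Each clone is 1 isolate of the line, so each test compares that clone with this WT line, and all 4 comparisons share the same 3 WT libraries. The clones are taken as labelled, since bktRNA1 RNA itself was not analysed here.

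The nuclear pore is the gated channel of the nuclear envelope through which proteins and RNA pass between nucleus and cytoplasm. Its scaffold consists of outer rings built from the Y-shaped complex and an inner ring, anchored by membrane proteins. Nucleoporins rich in phenylalanine-glycine (FG) repeats fill the channel and bind transport receptors, filaments face the cytoplasm, and a basket faces the nucleus. Most nucleoporins are needed in every cell, and dividing cells such as a colon cancer line build new pores in interphase and after each mitosis.

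2 measures were used. The retention level is the share of transcripts that keep an intron, in percent, from retained reads, which cover a boundary of exon and intron, and spliced reads, which cross the junction, each divided by its effective length. Spliced reads summed over the introns of a gene, scaled between libraries, stood for the level of its spliced mRNA. The libraries held 17287797 to 35348260 junction reads, and the 3 of KO-1 were the shallowest with 17287797 to 20454252. Between 12.3% and 13.7% of these reads were retained ones. Of 7 epithelial marker genes 5 were measured in all libraries, among them KRT8 with 60907 to 95300 scaled spliced reads, while COL1A1 had 135 to 278 and was the only one measured of 4 fibroblast, 3 leukocyte and 2 endothelial markers. The labels speak of 3 independent experiments per group, but the lists name no replicate, and libraries are given in listed order.

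The change that stood out among the introns lay on both sides of 1 exon of AHCTF1, which encodes ELYS, the protein that brings the Y complex to chromatin when pores form after mitosis. The gene lies on chromosome 1, 246839098 to 246931967, minus strand (GRCh38, hg38). The exon is exon 20 of 36 in the transcript AHCTF1-207, 147 bases at chr1:246887211-246887357 on the minus strand, and is shown because introns 19 and 20 of 35 flank it. Its sequence in GENCODE 29, 5′ to 3′ with its first and last 3 bases in capitals, is as follows.
AHCTF1 exon 20: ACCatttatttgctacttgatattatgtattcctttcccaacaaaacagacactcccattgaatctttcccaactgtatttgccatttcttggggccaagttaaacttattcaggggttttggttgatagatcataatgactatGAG
Of the 48 windows of 100 bases in this exon, 17 also occur in a transcript of another gene. Over the whole transcript 31.5% of windows are shared with AHCTF1P1, a processed pseudogene, and no line of the tables carries that name. Reads from such windows cannot be assigned with certainty, while the intron sequence read across a boundary was not compared here.

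Splice-site letters could be read where an exon of another annotated transcript covers the end of an intron. The following are shown because they belong to introns that passed the threshold, with the first 2 or last 2 bases of the intron in capitals.
SEC13 intron 8 of 8, start: GTacatac
SEC13 intron 8 of 8, end: caacaggattattttcccAG
NUP188 intron 29 of 43, start: GTgagtac
NUP188 intron 29 of 43, end: gttttttcttgacactgtAG
NUP160 intron 3 of 35, start: GTaagttg
NUP160 intron 3 of 35, end: tctttttaattactcaacAG
NUP160 intron 4 of 35, start: GTaagaat
NUP62 intron 1 of 1, start: GTgagcgc
AAAS intron 1 of 15, end: tcctcacttttgtgctatAG
All starts shown open with GT and all ends close with AG. The start could be read for 105 of the 649 nucleoporin introns (16.2%), of which 101 opened with GT, 4 with GC and 0 with AT. None came within 1 mismatch of NTATCCTT, the letters with which many introns of the minor (U12) class begin, against 2 of 102 in the list of pore partners described further on. The letters GTNAGT were found at 28.6% of the readable starts, against 31.4% in the partners. Neither end of AHCTF1 introns 19 and 20 nor of the NUP205 intron could be read.

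In WT cells nucleoporin introns were mostly removed. Over the 498 listed in all 4 tables the median retention level was 0.518%, against 1.27% over all 83066 such introns. Levels above 10% were found in 37 (7.43%), against 20% of all introns. An annotated exon overlapped 122 of the 498, and these had a median of 2.01% and 32 of the 37 high levels, so reads inside them can come from other transcript forms. The other 376 had a median of 0.395%. The highest of the 498 was 99.8%. The levels that follow are the highest, at most 1 per gene, among introns tested in all 4 clones, named for 1 gene and called in none. Of these without an inner exon, intron 14 of 50 of TPR, the basket filament protein, stood at 13.5% ± 3.42 (SD, n = 3) in WT at chr1:186356450-186357396. RANBP2 encodes the large protein of the cytoplasmic filaments, and its intron 10 of 28 at chr2:108751446-108751527 stood at 12% ± 2.65. Intron 4 of 42 of NUP205 at chr7:135576415-135576968 stood at 9.98% ± 3.38. The clones ranged from 12.3% to 17.4% for TPR, from 5.36% to 9.27% for RANBP2 and from 13.4% to 16.6% for NUP205. That none of these was called follows from the choice.

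Of these with an exon inside, the highest in WT were 92.7% ± 3.54 for the 5′ UTR intron 1 of RAE1 (chr20:57351359-57354031) and 89.7% ± 5.22 for intron 4 of the noncoding form NUP188-208 (chr9:128988187-128990152). RAE1 is an mRNA export factor and NUP188 an inner ring scaffold protein. Below them in this choice stood NUP98, an FG protein known from leukaemia fusions, with 82.3% ± 4.04 (chr11:3753409-3760562), then AAAS with 81.3% ± 3.18 (chr12:53320693-53321470) and NUP62 with 71.5% ± 7.61 (chr19:49927849-49929325). NUP85 stood at 56% ± 11.9 (chr17:75226158-75228997) and NUP43 at 8.07% ± 1.99 (chr6:149727199-149731612). These 7 introns were also chosen among those called in no clone, so that none passed follows from the choice. The called intron of SEC13, at 72.7% in WT, was left out for that reason. Most nucleoporin introns had too few retained reads for a test. A test needed at least 10 reads of each kind in the mean library, which left 76, 88, 84 and 92 introns in KO-1 to KO-4. This left 551 of the 649 untested in every clone.

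Higher retention was called for 4, 6, 2 and 2 nucleoporin introns in KO-1 to KO-4, at an adjusted p under 0.05 in a quasi-binomial test over all introns tested. The background shares called higher were 1.29%, 1.3%, 0.558% and 1.54%. As shares of the nucleoporin introns tested the calls were 5.26%, 6.82%, 2.38% and 2.17%. Lower retention was called for 0 in each clone, against 0.175%, 0.304%, 0.155% and 0.429% of all introns. By limma on log2 odds the count lower was also 0 in each clone. The filter reads the mean over both groups, so an intron that is low in WT can pass through the clone. Of the 9 introns called in any clone, 2 had a mean of retained reads below 10 in WT, and both are in AHCTF1. With no filter all listed introns were tested, and 5 of 557, 8 of 573, 2 of 574 and 2 of 572 were called higher in KO-1 to KO-4. These are 0.898%, 1.4%, 0.348% and 0.35%, against 0.351%, 0.411%, 0.173% and 0.451% of all introns. With the filter and an unadjusted p under 0.05, higher retention was found for 10, 16, 8 and 18 nucleoporin introns in KO-1 to KO-4. Lower retention was found for 1, 1, 2 and 3 by the same quasi-binomial test. Introns tested in all numbered 18804, 23669, 21865 and 24269. Of these, 1601, 1947, 1056 and 2668 were higher and 435, 858, 748 and 683 lower at the same unadjusted p. The median change in log2 odds over the nucleoporin introns tested was 0.24, 0.30, 0.08 and 0.38, against 0.13, 0.09, 0.02 and 0.16 over all introns tested. Changes above 0 were found for 53 of 76, 69 of 88, 48 of 84 and 64 of 92 of them, or 69.7%, 78.4%, 57.1% and 69.6%, against 62.2%, 58.5%, 52.3% and 64.7% of all introns. Under limma on log2 odds, 1 intron was called higher in KO-1 and 0 in the other clones.

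AHCTF1 intron 19 (chr1:246887358-246888176, 819 bases, in the coding part) was retained more in all 4 clones. In WT the 3 libraries stood at 0.483%, 2.91% and 2.68%, from 1, 6 and 6 retained reads. KO-1 stood at 21.7%, 19% and 18%, KO-2 at 12.8%, 12.3% and 9.83%, KO-3 at 13.6%, 12.7% and 17.6% and KO-4 at 13.1%, 12.8% and 8.77%. Every clone library lay above the highest WT library. The change in log2 odds was 3.51 ± 0.59, 2.61 ± 0.61, 2.97 ± 0.60 and 2.57 ± 0.61 (± SE) in KO-1 to KO-4. Adjusted p-values of the quasi-binomial test were 2.7e-07, 0.0017, 0.00014 and 0.0019. With a mean of 4.33 retained reads in WT the intron passed the filter through the clones, and with no filter the adjusted p-values were 3.2e-10, 0.00066, 1e-05 and 0.0016. With limma on log2 odds the call held in KO-1 and was lost in the other clones, with adjusted p of 0.13, 0.13 and 0.18. The difference among the clones did not pass its own test (adjusted p = 0.2).

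Intron 20 on the other side of the exon (chr1:246885681-246887210, 1530 bases) moved with it. The WT libraries stood at 2.27%, 2.3% and 0%, those of KO-1 at 22.1%, 10.5% and 12.5%, of KO-2 at 11.1%, 10.2% and 6.73%, of KO-3 at 6.92%, 13.8% and 12.1% and of KO-4 at 6.09%, 8.33% and 3.31%. Again no clone library lay within the range of WT, and KO-4 came nearest to it. The change in log2 odds was 3.53 ± 0.70 in KO-1 (adjusted p = 1e-05) and 2.98 ± 0.70 in KO-3 (adjusted p = 0.0016), in the quasi-binomial test. In KO-2 and KO-4 the mean of retained reads stayed under the minimum of 10, and WT had a mean of 3, so the levels in the clones decided which comparisons were tested. With no filter the changes were 3.53 ± 0.68, 2.66 ± 0.71, 2.98 ± 0.70 and 2.01 ± 0.76, with adjusted p of 1.6e-07, 0.0046, 0.00044 and 0.25 in KO-1 to KO-4. In the authors' deposited table the FDR of this intron was 1.9e-12, 1.9e-06, 2.6e-08 and 0.015. Under limma on log2 odds both calls were lost, with adjusted p of 0.12 in KO-1 and 0.35 in KO-3.

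Elsewhere in AHCTF1 the introns listed in all 4 tables did not show such levels. Over the 19 other introns of that transcript listed in all 4 tables, the median level was 0.823% in WT and 0.529%, 0.736%, 0.701% and 0.662% in KO-1 to KO-4. The highest of them was 2.25% in WT and 2.28% in any clone. Intron 21, next to the pair, stood at 1.94% in WT and between 0.948% and 1.31% in the clones. Intron 17 stood at 0 in WT and between 0.233% and 0.907% in the clones. The intron between intron 17 and the pair is not among the 19, so its level is not given. Spliced reads of the 19 introns were in the median 1.25 times those of WT in KO-1, with a range of 1.02 to 1.77. In KO-2, KO-3 and KO-4 the medians were 0.916, 0.892 and 0.841, with ranges of 0.632 to 1.29, 0.657 to 1.31 and 0.533 to 1.33. The low ends of these last 3 ranges are intron 1 and the high ends intron 35, so in those clones the spliced reads ran from below WT at the 5′ end to above it at the 3′ end.

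**Figure D1:**
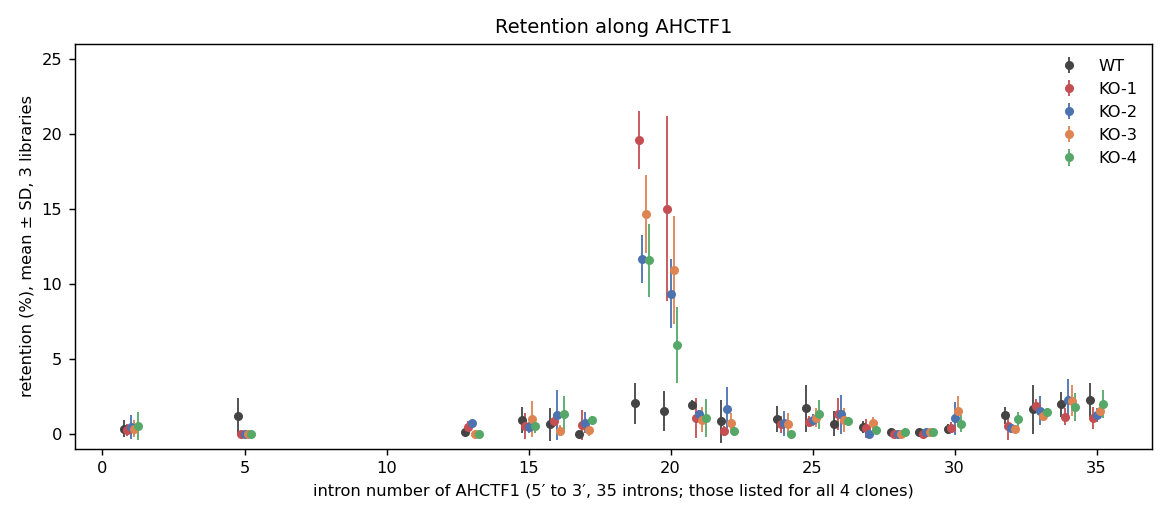
Retention level in percent (mean ± SD of 3 libraries) for the AHCTF1 introns listed for all 4 clones, by intron number from 5′ to 3′, with 1 colour per group. Introns 19 and 20 lie between 5.91% and 19.6% in the clones and at 2.02% and 1.53% in WT, and the other introns stay at or below 2.28% in every group.

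The other Y complex introns that passed belong to SEC13 and NUP160. SEC13 is a small ring protein that also serves in the coat of vesicles leaving the endoplasmic reticulum. The level of its intron at chr3:10301148-10304025 was 75.3%, 71.2% and 71.6% in WT, 85.5%, 84.7% and 83.6% in KO-1 and 85.1%, 81.4% and 84.6% in KO-2. The change in log2 odds was 1.05 ± 0.29 in KO-1 (adjusted p = 0.028) and 0.95 ± 0.24 in KO-2 (adjusted p = 0.017) by the quasi-binomial test, and KO-3 and KO-4 stood at 80.4% ± 2.7 and 79.5% ± 2.56. This intron shares its start with the intron at chr3:10301375-10304025, so that its retained reads also come from transcripts spliced at the nearer site. Spliced reads to the far site numbered 63.1 in WT, 35.3 in KO-1 and 40.1 in KO-2, and those to the nearer site 519, 595 and 606. So fewer reads reached the far site and more reached the nearer one in both clones, and these 2 read counts were not tested on their own. The KO-1 call was lost after centring on the median intron (adjusted p = 0.081) and without any 1 of the 3 KO-1 libraries or the 2nd WT library (0.069 to 0.21). The KO-2 call was lost without the 2nd WT library or the 1st or 3rd of KO-2 (0.084 to 0.12).

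NUP160 encodes a protein of the long arm of the Y complex, and its introns 3 and 4 changed in KO-2. Intron 3 (chr11:47840066-47840377) stood at 5.61%, 3.93% and 6.37% in WT and 14.7%, 15.4% and 16.4% in KO-2, a change of 1.70 ± 0.36 in log2 odds (adjusted p = 0.0016, quasi-binomial test). Intron 4 (chr11:47837624-47839842) stood at 6.42%, 5.17% and 6.25% in WT and 17.6%, 16.4% and 12.9% in KO-2, a change of 1.54 ± 0.38 (adjusted p = 0.012). In both introns all KO-2 libraries lay above all WT libraries. Intron 3 stood at 6.32% ± 1 in KO-1, 10.9% ± 1.79 in KO-3 and 8.34% ± 2.23 in KO-4. Its difference among the clones passed (adjusted p = 0.0098). An annotated exon of the form NUP160-203 overlaps these introns, so their retained reads can also come from that form. Introns 2 and 5 stood at 0.1% and 0.135% in WT and at 0.292% and 0 in KO-2. The call in intron 4 was lost without the 2nd WT library or the 1st or 2nd of KO-2, with adjusted p of 0.07, 0.099 and 0.1.

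In the inner ring 2 introns without an inner exon passed, each in 1 clone. Intron 40 of 42 of NUP205, a large scaffold protein, lies at chr7:135645019-135645467. It stood at 1.95%, 0.937% and 3.6% in WT and 5.26%, 5.66% and 5.96% in KO-1, a change of 1.49 ± 0.41 in log2 odds (adjusted p = 0.043, quasi-binomial test). KO-2, KO-3 and KO-4 stood at 4.21% ± 2.27, 3.7% ± 0.521 and 3.2% ± 1.59. This call was lost without the 1st or 2nd WT library and without any 1 library of KO-1, with adjusted p of 0.12 to 0.28. It was also lost after centring on the median intron (0.09) and among introns with no annotated exon inside (0.061). Intron 29 of 43 of NUP188 (chr9:128994924-128995318) stood at 4.03%, 1.37% and 3.27% in WT and 7.54%, 6.11% and 7.88% in KO-4, a change of 1.39 ± 0.35 (adjusted p = 0.011). The 3 KO-4 libraries lay above the 3 of WT. That call was lost without the 2nd WT library (adjusted p = 0.15) or the 1st or 3rd of KO-4 (0.081 and 0.066).

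NUP62, a subunit of the FG channel, and AAAS, the cytoplasmic-side protein ALADIN that is mutated in triple A syndrome, each had 1 intron called in KO-2. The NUP62 intron at chr19:49909885-49929325 lies in the 5′ UTR, spans 19441 bases and holds exons of other forms. It stood at 54.1%, 53.4% and 61.1% in WT and 70%, 72.6% and 69.3% in KO-2. The change was 0.91 ± 0.19 in log2 odds (adjusted p = 0.0025, quasi-binomial test). In the mean WT library this intron had 314 retained reads. The intron that shares its start (chr19:49927849-49929325) had 329, and the one that shares its end (chr19:49909885-49927693) had 10.7. Reads counted as retained in the long intron can thus also come from other transcript forms. The AAAS intron 1 of 15 at chr12:53320693-53321342 stood at 5.35%, 5.6% and 6.15% in WT and 12%, 11.6% and 10.3% in KO-2, a change of 1.06 ± 0.27 (adjusted p = 0.016). In both, KO-2 lay above WT in all 3 libraries. Their differences among clones passed with adjusted p of 0.036 for NUP62 and 0.017 for AAAS. The AAAS call was lost without the 1st or 2nd library of WT or of KO-2, with adjusted p of 0.06 to 0.11. An annotated exon overlaps this AAAS intron, and a longer intron at chr12:53320693-53321470 ends at the same site. Its retained reads can therefore also come from other transcript forms. The longer intron stood at 81.3% in WT and 81% in KO-2.

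**Figure D2:**
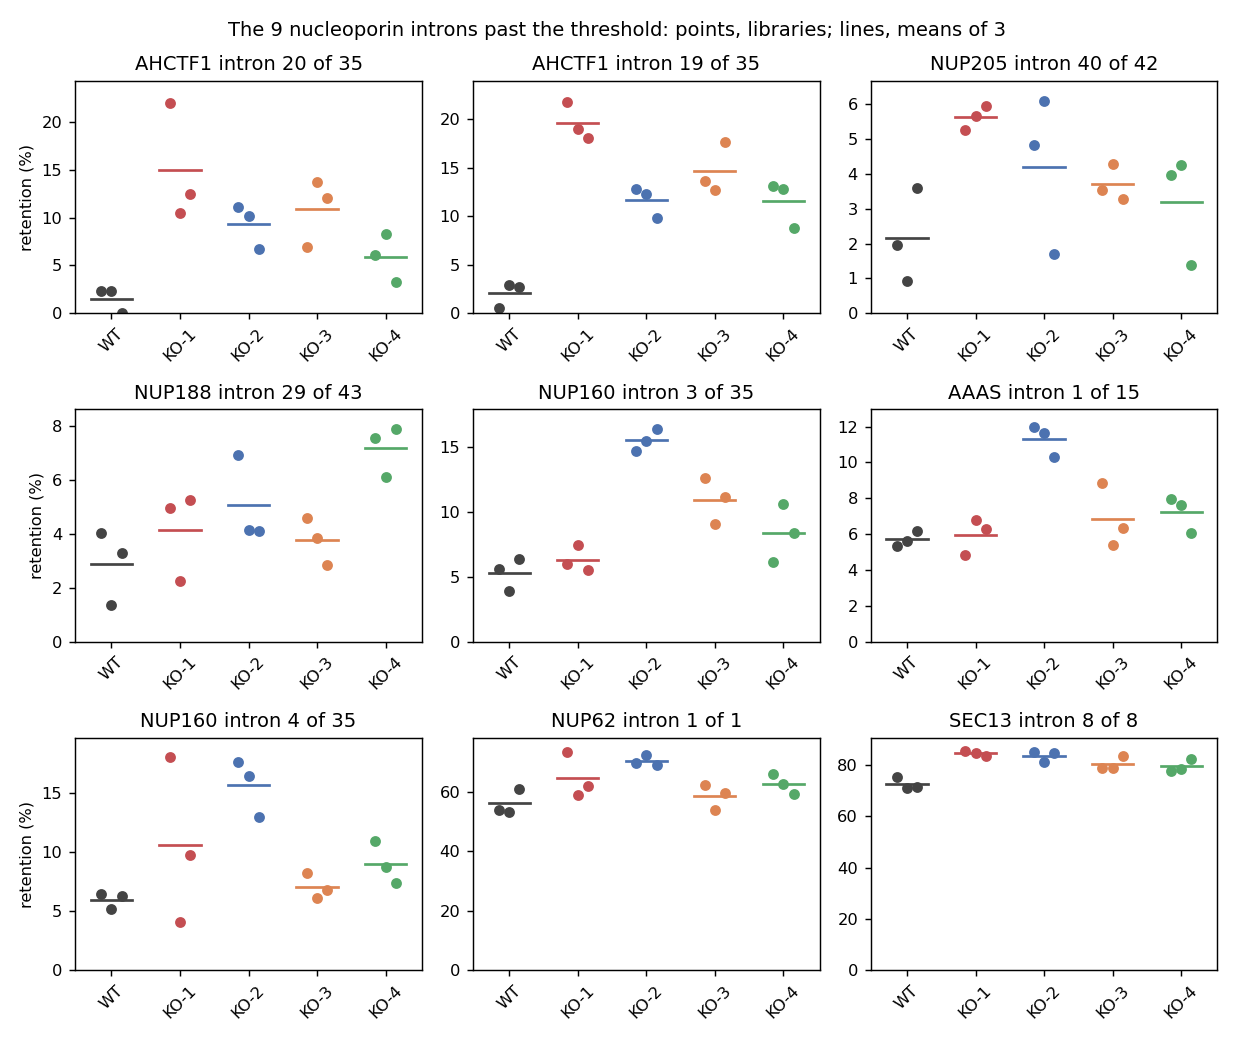
Retention level in percent in each library (points, in listed order) with the mean of 3 (lines), for the 9 nucleoporin introns called in at least 1 clone, each panel on its own axis from 0. In AHCTF1 introns 19 and 20 every clone library lies above the 3 WT libraries, with clone means of 5.91% to 19.6% against 2.02% and 1.53% in WT. SEC13 and NUP62 start from 72.7% and 56.2% in WT.

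Among introns that passed in no clone, the 5 with the largest median rise, at most 1 per gene, were in NUP85, AAAS, NUP62, NUP205 and NUP188. The nearest to the threshold was intron 12 of 18 of NUP85, a Y complex arm protein, at chr17:75231424-75231572. It stood at 1.21% ± 0.51 in WT and 3.04% ± 0.35 in KO-4, with an adjusted p of 0.054. Intron 41 of 43 of NUP188 at chr9:129005777-129006049 stood at 2.07% in WT and 4.06% in KO-4 (adjusted p = 0.12). Intron 4 of 15 of AAAS at chr12:53315141-53315334 stood at 3.04% in WT and 4.53% to 5.4% in the clones, with a smallest adjusted p of 0.17. NUP62 at chr19:49909885-49927693 stood at 2.41% in WT and 3.11% to 3.99% in the clones. The NUP205 intron is intron 4, given with the levels in WT. The 5 largest median falls were in NUP98, AAAS, NUP58, RANBP2 and SEC13, with smallest adjusted p of 0.44, 0.45, 0.43, 0.26 and 0.36. The NUP98 intron at chr11:3753409-3760562 stood at 82.3% in WT and 71.1% to 78.3% in the clones. For intron 7 of 9 of SEC13 at chr3:10305157-10305558 the levels were 1.07% in WT and 0.537% to 0.938% in the clones. Among the 4 clones, 5 of the 81 nucleoporin introns tested differed, against 6.41% of all introns. By the adjusted p, 0 differed without the filter on low reads and 0 with limma on log2 odds.

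At the level of spliced mRNA all 30 genes were measured, and most of those that changed fell. Fewer spliced reads than in WT were found for 6, 20, 11 and 21 genes in KO-1 to KO-4, at an adjusted p under 0.05 by limma over 9471 genes. These are 20%, 66.7%, 36.7% and 70% of the 30 genes, against 12.5%, 21.1%, 15.6% and 24.2% of all genes. More spliced reads were found for 2, 1, 2 and 1 genes, or 6.67%, 3.33%, 6.67% and 3.33%, against 13.7%, 21.9%, 15% and 24.6% of all genes. The median log2 change of the 30 genes was -0.06, -0.25, -0.06 and -0.23 in KO-1 to KO-4, and that of all genes was 0.00 in each. The changes were modest, and the lowest mean of any gene was 69.1% of WT. The shallower libraries of KO-1 go with the fewest genes called lower, and the part of depth in that count was not tested. In bulk RNA, fewer cells that carry a transcript and less of it per cell cannot be told apart.

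**Figure D3:**
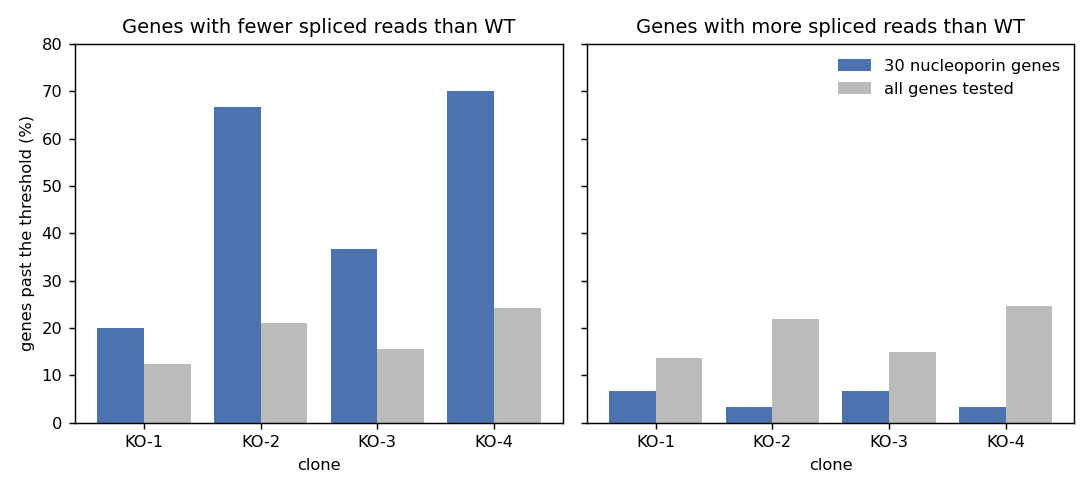
Share of genes, in percent, with fewer (left) or more (right) spliced reads than WT at an adjusted p under 0.05, for the 30 nucleoporin genes and for all 9471 genes tested, by clone. For fewer reads the bars of the nucleoporin genes reach 66.7% in KO-2 and 70% in KO-4, against 21.1% and 24.2% of all genes.

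Relative to the 3′ end, spliced reads were fewer toward the 5′ end in KO-2, KO-3 and KO-4 than in WT. The introns of each gene were divided by position into a 5′ and a 3′ part with equal numbers of introns, a measure chosen after the gene results were seen. The median log2 ratio of 5′ to 3′ spliced reads over 8167 genes was -0.23 to -0.19 in the WT libraries and -0.20 to -0.19 in those of KO-1. It was -0.30 to -0.29 in KO-2, -0.31 to -0.29 in KO-3 and -0.32 to -0.31 in KO-4, so every library of these 3 clones lay below every WT library. Over the 30 nucleoporin genes the medians were -0.38 to -0.29 in WT, -0.40 to -0.31 in KO-1, -0.56 to -0.51 in KO-2, -0.56 to -0.50 in KO-3 and -0.52 to -0.36 in KO-4. The ratio was lower than in WT for 0, 9, 6 and 10 of the 30 genes in KO-1 to KO-4 by limma, against 0.282%, 4.47%, 3.24% and 6.64% of all genes. It was higher for 0 in each clone by the adjusted p, against 0.331%, 0.22%, 0.159% and 0.429%. The largest changes in this ratio were in RANBP2, with -0.68 ± 0.08, -0.76 ± 0.08 and -0.69 ± 0.08 (log2 ± SE) in KO-2, KO-3 and KO-4 (adjusted p = 0.00064, 0.00047 and 0.00059).

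The gene counts were therefore also taken in each part alone. Over the 3′ part, fewer spliced reads than in WT were found for 4, 17, 8 and 18 of the 30 genes in KO-1 to KO-4 by limma, against 10.8%, 18.4%, 11.9% and 21.8% of all genes. Over the 5′ part the counts were 4, 24, 14 and 20, against 9.97%, 18.4%, 13.4% and 20.6%. The median log2 change over the 3′ part was -0.05, -0.22, 0.00 and -0.19. Of the genes lower over all introns, 4 of 6, 17 of 20, 7 of 11 and 18 of 21 were also lower over the 3′ part. The calls that ended there were NUP35 and NUP37 in KO-1, then NUP85, RAE1 and RANBP2 in KO-2. In KO-3 they were NUP155, NUP188, NUP205 and NUP43, and in KO-4 AHCTF1, NUP98 and RAE1. Of the higher calls SEC13 in KO-1 and KO-2 and AAAS in KO-3 ended there, with adjusted p of 0.18, 0.28 and 0.06. The part of 5′ coverage or RNA quality in the changes given below for all introns was not tested.

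Levels in WT ranged over the genes from 50.9 to 547 scaled spliced reads per junction, the median over a gene's junctions. Reads per junction also fell toward the 5′ end in WT, as in NUP205 with a median of 110 in the 5′ part and 217 in the 3′ part, so this median is not free of transcript length. RANBP2 showed the widest step, from 72.4 in the 5′ part to 273 in the 3′ part. Over all junctions SEC13 stood highest with 547, followed by NUP93 with 347, NUP85 with 336 and NUP37 with 320. NUP214 stood lowest with 50.9, after NUP62 with 59.4, RANBP2 with 90.5, AHCTF1 with 104 and both POM121 genes with 107 and 108. RANBP2 and the POM121 genes have near-identical copies elsewhere, with 14.6% of the windows of RANBP2 and 22.8% and 41.1% of those of POM121 and POM121C found in other genes, so their reads may be split between copies. NUP62 (11.4%), NUP50 (6.5%), NUP133 (5.5%) and NUP188 (3.3%) share fewer.

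Genes of the inner ring, the scaffold around the channel, were lower in several clones. All 5 were lower in KO-2 and all 5 in KO-4, and 3 in each of KO-1 and KO-3. In KO-1 to KO-4 these are 60%, 100%, 60% and 100%, against 12.5%, 21.1%, 15.6% and 24.2% of all genes. The median log2 changes of the 5 genes were -0.22, -0.43, -0.15 and -0.26 in KO-1 to KO-4. Over the 3′ part alone all 3 KO-3 calls ended, with adjusted p by limma of 0.071 for NUP155, 0.1 for NUP188 and 0.43 for NUP205. The KO-1 call of NUP35 ended there as well (0.1). NUP205 (ENSG00000155561.14, chromosome 7, 135557919 to 135648757, plus strand) was lower in each of the 4 comparisons. Its scaled spliced reads were 3985, 3961 and 3952 in WT, 3399, 3178 and 3244 in KO-1 and 2936, 3044 and 2870 in KO-2. KO-3 had 3667, 3658 and 3379 and KO-4 had 3012, 3120 and 3409. No clone library reached the lowest WT library. The log2 changes by limma were -0.28 ± 0.05 for KO-1 (adjusted p = 0.00045), -0.43 ± 0.05 for KO-2 (adjusted p = 1.1e-06), -0.15 ± 0.05 for KO-3 (adjusted p = 0.032) and -0.32 ± 0.05 for KO-4 (adjusted p = 3.5e-05). Along the transcript the spliced reads of intron 1 were 0.494, 0.548 and 0.547 times those of WT in KO-2, KO-3 and KO-4, and those of intron 42 were 0.875, 0.973 and 0.898 times. Over the 3′ part alone the log2 changes by limma were -0.28 ± 0.06, -0.34 ± 0.06, -0.07 ± 0.06 and -0.25 ± 0.06 in KO-1 to KO-4 (adjusted p = 0.001, 3.9e-05, 0.43 and 0.0012). The KO-3 call over all introns was lost without any 1 of the WT libraries or without the 3rd of KO-3, with adjusted p of 0.065 to 0.16.

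NUP155, which links the inner ring to the membrane, stood at 2847, 3185 and 3117 in WT. Of the clones, KO-1 had 3232, 2911 and 2973, KO-2 had 2227, 2125 and 2170, KO-3 had 2497, 2588 and 2665 and KO-4 had 2318, 2094 and 2519. KO-1 overlapped WT and the other clones lay below it. The log2 changes by limma were -0.00 ± 0.06 for KO-1 (adjusted p = 0.96), -0.49 ± 0.06 for KO-2 (adjusted p = 2.1e-06), -0.24 ± 0.06 for KO-3 (adjusted p = 0.0069) and -0.40 ± 0.06 for KO-4 (adjusted p = 1.9e-05), with a difference among clones at adjusted p = 3.1e-06. NUP93, the linker that holds the ring together, had 5145 ± 203 in WT, with KO-1 at 4408 ± 320, KO-2 at 4063 ± 126, KO-3 at 5223 ± 171 and KO-4 at 4555 ± 31.7 scaled spliced reads (mean ± SD, n = 3). It fell in KO-1, KO-2 and KO-4 by limma, with adjusted p of 0.0028, 1.8e-05 and 0.0087. NUP188 had 9469 ± 206 in WT, with KO-1 at 8674 ± 550, KO-2 at 7887 ± 299, KO-3 at 8306 ± 613 and KO-4 at 7928 ± 198, with adjusted p under the threshold by limma in KO-2 (0.00042), KO-3 (0.011) and KO-4 (0.00048). Intron 1 of NUP188 had 0.577, 0.668 and 0.58 times the spliced reads of WT in KO-2, KO-3 and KO-4, and intron 43 had 0.98, 1.05 and 1.02 times. NUP35, which touches the membrane, had 900 ± 65.7 in WT, with KO-1 at 769 ± 64.3, KO-2 at 669 ± 54.3, KO-3 at 895 ± 12.4 and KO-4 at 778 ± 32.2. By limma it fell in KO-1 (-0.23 ± 0.08, adjusted p = 0.037), KO-2 (-0.43 ± 0.08, adjusted p = 0.00014) and KO-4 (-0.21 ± 0.08, adjusted p = 0.033). Single libraries decided part of these calls. The KO-1 and KO-4 calls of NUP35 were lost without the 1st WT library, at adjusted p of 0.17 in both, without the 2nd or 3rd of KO-1 (0.093 and 0.16) and without the 1st or 2nd of KO-4 (0.11 and 0.081). With scaling to total spliced reads the KO-4 call of NUP35 had an adjusted p of 0.06. The call of NUP188 in KO-3 was lost without the 1st library of that clone (0.073), and that of NUP93 in KO-4 without the 2nd of WT (0.054).

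In the Y complex 1, 7, 2 and 7 of 9 genes were lower in KO-1 to KO-4. These are 11.1%, 77.8%, 22.2% and 77.8%, against 12.5%, 21.1%, 15.6% and 24.2% of all genes. Higher calls numbered 2, 1, 1 and 0 in KO-1 to KO-4. As shares they are 22.2%, 11.1%, 11.1% and 0%, against 13.7%, 21.9%, 15% and 24.6% of all genes. The median log2 changes of the 9 genes were -0.08, -0.24, 0.03 and -0.30 in KO-1 to KO-4. NUP107, a stalk protein of the Y (chromosome 12, 68686734 to 68745809, plus strand), stood at 5323, 5856 and 5243 scaled spliced reads in WT. Among the clones, KO-1 had 5242, 5010 and 4898, KO-2 had 3833, 3871 and 4080, KO-3 had 5502, 5766 and 5560 and KO-4 had 4266, 4723 and 4751. KO-2 and KO-4 lay wholly below WT and KO-3 within its range. The log2 changes by limma were -0.12 ± 0.05 for KO-1 (adjusted p = 0.12), -0.48 ± 0.05 for KO-2 (adjusted p = 2.7e-07), 0.04 ± 0.05 for KO-3 (adjusted p = 0.65) and -0.26 ± 0.05 for KO-4 (adjusted p = 0.00041), and the clones differed (adjusted p = 1.5e-07). NUP160, the arm protein with the called introns, stood at 4820, 4842 and 4633 in WT, 3276, 3622 and 3311 in KO-2 and 3919, 3660 and 4050 in KO-4. It changed by -0.49 ± 0.06 for KO-2 (adjusted p = 4.9e-07) and -0.30 ± 0.06 for KO-4 (adjusted p = 0.00017) by limma, and its means in KO-1 and KO-3 were 4372 ± 237 and 4512 ± 266. Its spliced reads at intron 1 were 0.592, 0.795 and 0.718 times WT in KO-2, KO-3 and KO-4, and at intron 35 they were 0.818, 1.1 and 0.937 times. KO-2 is also the clone in which introns 3 and 4 of NUP160 were called. Spliced reads of those introns enter both their retention levels and the gene sum, so these calls are not independent.

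NUP133, at the tip of the stalk, had 3038 ± 104 in WT, with KO-1 at 2877 ± 44.3, KO-2 at 2570 ± 126, KO-3 at 3111 ± 78.9 and KO-4 at 2387 ± 135 and fell in KO-2 (-0.24 ± 0.05, adjusted p = 0.00088) and KO-4 (-0.35 ± 0.05, adjusted p = 1.4e-05) by limma. SEH1L, an arm protein that also serves in nutrient sensing by the GATOR2 complex, had 1907 ± 56.4 in WT, with KO-1 at 1875 ± 160, KO-2 at 1411 ± 91.6, KO-3 at 1601 ± 95 and KO-4 at 1497 ± 73.8. It fell in KO-2, KO-3 and KO-4, with adjusted p of 2.1e-05, 0.0073 and 0.0002 by limma. NUP43 and NUP37 are small ring proteins of the vertebrate Y complex. NUP43 had 836 ± 89.4 in WT, with KO-1 at 786 ± 54.9, KO-2 at 630 ± 36.7, KO-3 at 713 ± 22.8 and KO-4 at 600 ± 34.3, with -0.40 ± 0.08 for KO-2 (adjusted p = 0.00048), -0.22 ± 0.08 for KO-3 (adjusted p = 0.048) and -0.47 ± 0.08 for KO-4 (adjusted p = 7.8e-05) by limma. NUP37 had 1522 ± 44.6 in WT, with KO-1 at 1309 ± 93.4, KO-2 at 1346 ± 127, KO-3 at 1688 ± 46.1 and KO-4 at 1215 ± 95.2, and passed the limma test in KO-1, KO-2 and KO-4 with adjusted p of 0.029, 0.048 and 0.00074. NUP85 had 6429 ± 120 in WT, with KO-1 at 6097 ± 324, KO-2 at 5786 ± 134, KO-3 at 6753 ± 434 and KO-4 at 6452 ± 156 and passed the limma test in KO-2 (-0.15 ± 0.05, adjusted p = 0.018). Single libraries decided several of these calls. NUP43 in KO-3 lost its call without any of the 2nd or 3rd of WT or the 3 of KO-3 (0.065 to 0.19). NUP37 lost it without the 1st or 2nd of WT or the 1st or 3rd of the clone in KO-1 (0.05 to 0.14) and in KO-2 (0.094 to 0.19). NUP85 in KO-2 lost it without the 2nd of WT (0.058) or the 3rd of KO-2 (0.074).

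The 2 other Y complex genes were higher in KO-1. SEC13 was also higher in KO-2 and KO-3, and AHCTF1 was lower in KO-4. SEC13 (chromosome 3, 10293131 to 10321178, minus strand) stood at 4300, 4495 and 4496 in WT. Clone KO-1 had 4780, 5032 and 4867, KO-2 had 4764, 4983 and 4768, KO-3 had 4951, 5294 and 5274 and KO-4 had 4427, 4612 and 4880. The libraries of KO-1, KO-2 and KO-3 lay above those of WT, and KO-4 overlapped them. Its log2 changes by limma were 0.14 ± 0.05 for KO-1 (adjusted p = 0.032), 0.13 ± 0.05 for KO-2 (adjusted p = 0.038), 0.22 ± 0.05 for KO-3 (adjusted p = 0.0014) and 0.07 ± 0.05 for KO-4 (adjusted p = 0.27). With scaling to total spliced reads the calls in KO-1 and KO-2 were lost (adjusted p = 0.071 and 0.074), as they were without the 1st or 2nd WT library (0.053 to 0.13). Leaving out the 2nd or 3rd library of KO-1, or any 1 of KO-2, also ended them (0.056 to 0.13). AHCTF1 stood at 2245, 2488 and 2502 in WT and 3182, 2810 and 2893 in KO-1, where all 3 libraries lay above WT. For the same gene, KO-2 had 2324, 2205 and 2345, KO-3 had 2180, 2294 and 2406 and KO-4 had 2048, 2129 and 2289, and each overlapped WT. The log2 changes by limma were 0.30 ± 0.06 for KO-1 (adjusted p = 0.0011), -0.07 ± 0.06 for KO-2 (adjusted p = 0.37), -0.07 ± 0.06 for KO-3 (adjusted p = 0.41) and -0.16 ± 0.06 for KO-4 (adjusted p = 0.035), and the clones differed (adjusted p = 4e-06). The KO-4 call was lost over the 3′ part (adjusted p = 0.64), with scaling to total reads (adjusted p = 0.094) and without the 2nd or 3rd of WT or the 1st or 2nd of KO-4 (0.093 to 0.15). The clone with the highest mean retention of introns 19 and 20 was also the one with the most spliced AHCTF1 reads.

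**Figure D4:**
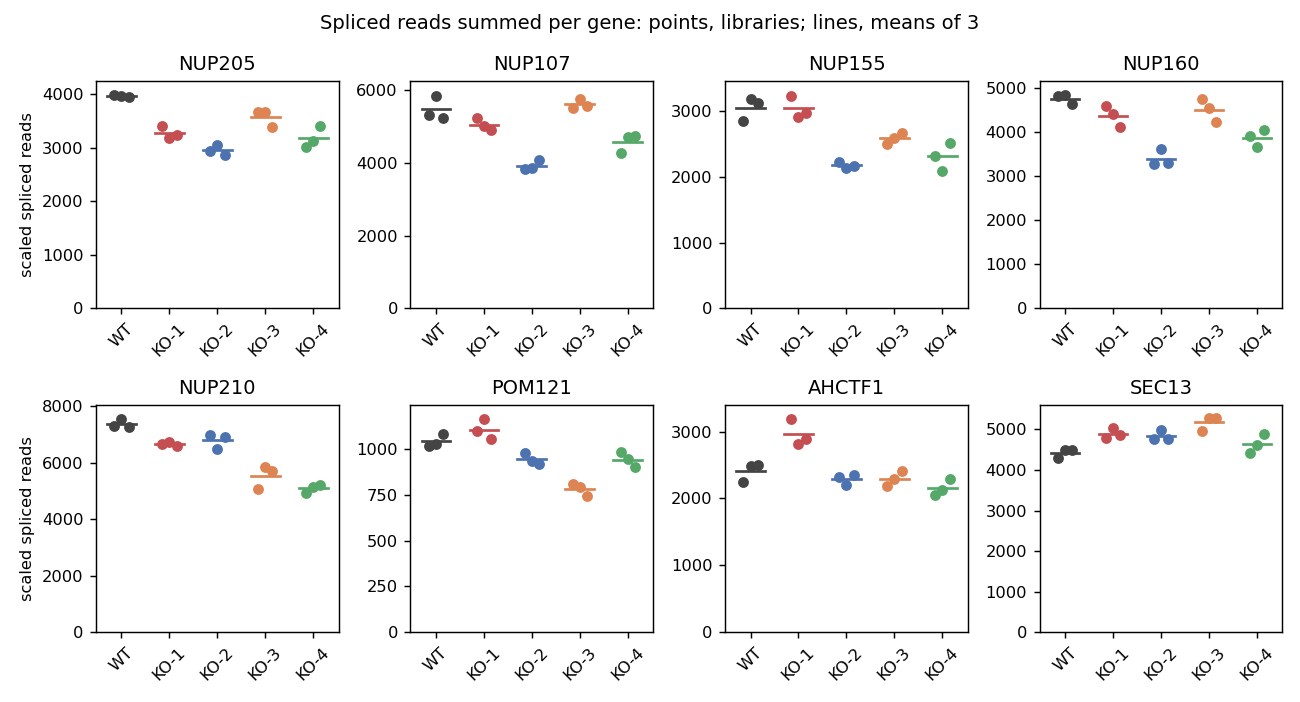
Scaled spliced reads per gene in each library (points, in listed order) with the mean of 3 (lines), for 8 nucleoporin genes, each panel on its own axis from 0. NUP205, NUP107, NUP155 and NUP160 are lowest in KO-2, with means of 2950, 3928, 2174 and 3403, NUP210 is lowest in KO-4 (5087), POM121 in KO-3 (783), and AHCTF1 is highest in KO-1 (2962).

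The membrane nucleoporins split by clone. NUP210, the large protein in the lumen around the pore (chromosome 3, 13316235 to 13420309, minus strand), stood at 7288, 7540 and 7267 in WT, 6648, 6718 and 6591 in KO-1 and 6992, 6493 and 6928 in KO-2. It stood at 5070, 5850 and 5703 in KO-3 and 4924, 5127 and 5211 in KO-4, below every library of the other groups. The log2 changes by limma were -0.15 ± 0.05 for KO-1 (adjusted p = 0.038), -0.11 ± 0.05 for KO-2 (adjusted p = 0.074), -0.41 ± 0.05 for KO-3 (adjusted p = 2.8e-06) and -0.53 ± 0.05 for KO-4 (adjusted p = 1.8e-08), and the difference among clones had an adjusted p of 2.1e-07. The KO-1 call was lost without any 1 of the 3 WT or 3 KO-1 libraries (adjusted p = 0.054 to 0.12). POM121, a membrane anchor needed to build pores, stood at 1018, 1030 and 1086 in WT and 811, 793 and 744 in KO-3, with KO-1 at 1107 ± 54.4, KO-2 at 945 ± 30.5 and KO-4 at 944 ± 41. It changed by -0.42 ± 0.07 for KO-3 (adjusted p = 6.3e-05), by limma, and its near-copy POM121C by -0.29 ± 0.07 for KO-3 (adjusted p = 0.0022), and neither passed in another clone. POM121C had 1053 ± 31.9 in WT, with KO-1 at 1069 ± 28, KO-2 at 1010 ± 65.1, KO-3 at 864 ± 15.9 and KO-4 at 994 ± 40.4. NDC1, an anchor of the inner ring, had 2320 ± 155 in WT, with KO-1 at 1896 ± 211, KO-2 at 1763 ± 7.52, KO-3 at 2266 ± 89.2 and KO-4 at 1694 ± 131 and fell by limma in KO-1 (-0.30 ± 0.07, adjusted p = 0.0041), KO-2 (-0.39 ± 0.07, adjusted p = 0.00013) and KO-4 (-0.45 ± 0.07, adjusted p = 2.1e-05). The 4 genes together had 2, 1, 3 and 2 lower calls in KO-1 to KO-4. As shares they are 50%, 25%, 75% and 50%, against 12.5%, 21.1%, 15.6% and 24.2% of all genes.

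Among the FG proteins of the channel 0, 3, 1 and 2 of 4 genes were lower in KO-1 to KO-4. These are 0%, 75%, 25% and 50%, against 12.5%, 21.1%, 15.6% and 24.2% of all genes. NUP54 and NUP58 form the central channel complex with NUP62. NUP54 had 2364 ± 76 in WT, with KO-1 at 2088 ± 132, KO-2 at 1922 ± 245, KO-3 at 2103 ± 151 and KO-4 at 1891 ± 69.9, and fell by limma in KO-2 (adjusted p = 0.0023) and KO-4 (adjusted p = 0.0013). NUP58 had 3027 ± 251 in WT, with KO-1 at 3207 ± 196, KO-2 at 2439 ± 9.72, KO-3 at 2478 ± 61.8 and KO-4 at 2893 ± 31.6, with -0.31 ± 0.06 for KO-2 (adjusted p = 0.00015) and -0.29 ± 0.06 for KO-3 (adjusted p = 0.00072) by limma. NUP62 had 438 ± 56.3 in WT, with KO-1 at 482 ± 21.2, KO-2 at 351 ± 37, KO-3 at 367 ± 30.8 and KO-4 at 428 ± 8.09 and passed in KO-2 (-0.32 ± 0.10, adjusted p = 0.014 by limma), the clone in which its long intron was called. Spliced reads of that intron enter both its retention level and the gene sum, so the 2 calls are not independent. The gene call was lost without the 2nd WT library (adjusted p = 0.12) or the 2nd of KO-2 (0.087). In KO-3 it passed with scaling to total spliced reads (adjusted p = 0.019), while median-ratio scaling gave 0.064. NUP98 had 3879 ± 149 in WT, with KO-1 at 3997 ± 112, KO-2 at 3774 ± 112, KO-3 at 3770 ± 112 and KO-4 at 3326 ± 61.8 and fell in KO-4 (-0.22 ± 0.05, adjusted p = 0.00059 by limma).

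On the cytoplasmic side 0, 2, 0 and 3 of 5 genes were lower in KO-1 to KO-4. As shares they are 0%, 40%, 0% and 60%, against 12.5%, 21.1%, 15.6% and 24.2% of all genes. RANBP2 had 3153 ± 75.7 in WT, with KO-1 at 3082 ± 199, KO-2 at 2758 ± 155, KO-3 at 3171 ± 104 and KO-4 at 2661 ± 39.2, with -0.19 ± 0.06 for KO-2 (adjusted p = 0.0067) and -0.24 ± 0.06 for KO-4 (adjusted p = 0.0009) by limma. RAE1 had 2563 ± 48.1 in WT, with KO-1 at 2589 ± 131, KO-2 at 2276 ± 97.5, KO-3 at 2657 ± 135 and KO-4 at 2285 ± 42.1 and fell in KO-2 and KO-4 with adjusted p of 0.014 and 0.016 by limma. NUP88, partner of NUP214 at the mRNA exit platform, had 2900 ± 5.25 in WT, with KO-1 at 2855 ± 29.6, KO-2 at 2744 ± 132, KO-3 at 2991 ± 157 and KO-4 at 2522 ± 44 and fell in KO-4 (-0.20 ± 0.05, adjusted p = 0.0024 by limma). The RAE1 calls were lost without the 3rd library of KO-2 (adjusted p = 0.083) and without the 1st of KO-4 (0.054), and the RANBP2 call in KO-2 without its 3rd library (0.051). NUP214 had 834 ± 82.2 in WT, with KO-1 at 890 ± 113, KO-2 at 788 ± 14.2, KO-3 at 831 ± 13.5 and KO-4 at 805 ± 46.2, and passed in no clone. AAAS (chromosome 12, 53307456 to 53324864, minus strand) rose instead, from 4252, 4188 and 4055 in WT to 4649, 4643 and 4638 in KO-3 and 4873, 4809 and 4942 in KO-4. Both clones lay wholly above WT. The log2 changes by limma were 0.02 ± 0.04 for KO-1 (adjusted p = 0.81), -0.09 ± 0.04 for KO-2 (adjusted p = 0.093), 0.16 ± 0.04 for KO-3 (adjusted p = 0.0087) and 0.23 ± 0.04 for KO-4 (adjusted p = 0.00016), and the clones differed (adjusted p = 3.8e-06). With scaling to total spliced reads the KO-3 call was lost (adjusted p = 0.14).

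In the nuclear basket NUP153 and NUP50 fell in KO-2, KO-3 and KO-4, and TPR passed in no clone over all introns. NUP153 docks the basket to the ring and had 2610 ± 90 in WT, with KO-1 at 2454 ± 236, KO-2 at 2160 ± 102, KO-3 at 2227 ± 57.2 and KO-4 at 2056 ± 84.6. Its log2 changes by limma were -0.09 ± 0.06 for KO-1 (adjusted p = 0.3), -0.27 ± 0.06 for KO-2 (adjusted p = 0.0012), -0.23 ± 0.06 for KO-3 (adjusted p = 0.0081) and -0.34 ± 0.06 for KO-4 (adjusted p = 9.4e-05). NUP50, a cofactor of importins, stood at 1814, 1811 and 1818 in WT. Below WT without overlap, KO-2 had 1357, 1422 and 1349, KO-3 had 1403, 1536 and 1538 and KO-4 had 1425, 1359 and 1439 reads. Its log2 changes by limma were -0.12 ± 0.06 for KO-1 (adjusted p = 0.14), -0.40 ± 0.06 for KO-2 (adjusted p = 8.8e-06), -0.28 ± 0.06 for KO-3 (adjusted p = 0.00091) and -0.37 ± 0.06 for KO-4 (adjusted p = 2.1e-05). TPR libraries stood at 10120, 9728 and 9757 in WT, and its log2 changes by limma were 0.05 ± 0.04 for KO-1 (adjusted p = 0.45), 0.06 ± 0.04 for KO-2 (adjusted p = 0.26), 0.10 ± 0.04 for KO-3 (adjusted p = 0.094) and -0.06 ± 0.04 for KO-4 (adjusted p = 0.24). Its log2 changes by limma over the 5′ part were -0.15 ± 0.05, -0.15 ± 0.05 and -0.28 ± 0.05 in KO-2, KO-3 and KO-4 (adjusted p = 0.029, 0.041 and 0.00022). Over the 3′ part they were 0.15 ± 0.05, 0.20 ± 0.05 and 0.01 ± 0.05 (adjusted p = 0.016, 0.0035 and 0.83). The ends of TPR thus went opposite ways in KO-2 and KO-3, while in KO-4 only the 5′ part passed.

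**Figure D5:**
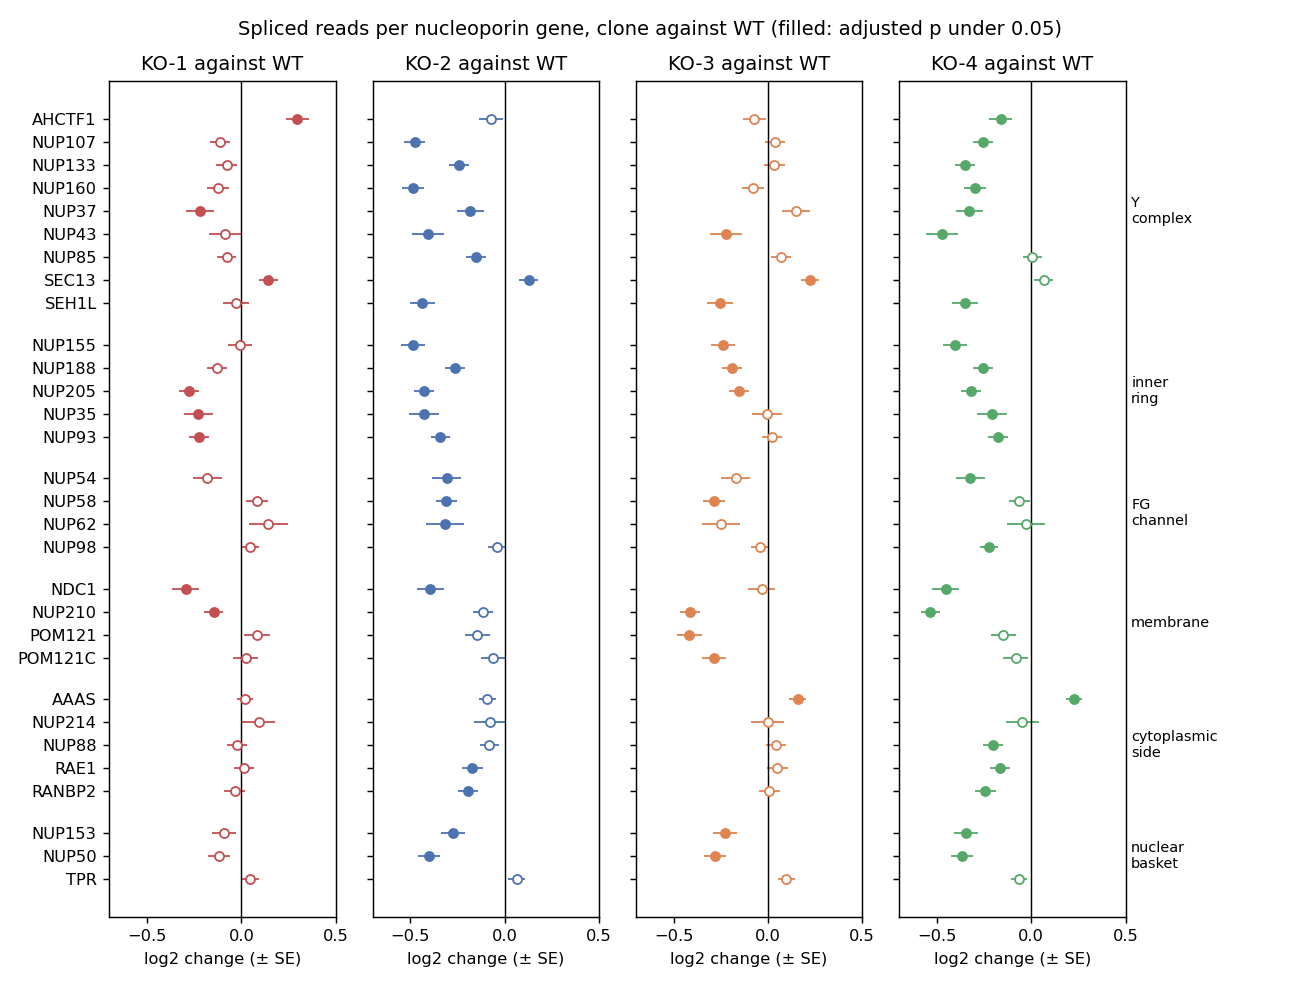
Log2 change in spliced reads of each of the 30 nucleoporin genes against WT (point ± SE), by role, with 1 panel per clone and filled points for an adjusted p under 0.05. Filled points to the left of 0 number 6, 20, 11 and 21 in KO-1 to KO-4, and those to the right 2, 1, 2 and 1.

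The clones also differed from each other without reference to WT. By limma 27 of the 30 genes differed among clones at an adjusted p under 0.05, or all but NUP54, NUP188 and NUP214. These were contrasts between clones, with the spread estimated over all 15 libraries. Of all genes 75.4% did.

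A list of 30 partners of the pore and the nuclear envelope was read in the same way, of which 28 were measured. Fewer spliced reads were found for 3, 6, 7 and 7 of the 28 in KO-1 to KO-4 by limma. These are 10.7%, 21.4%, 25% and 25%, against 12.5%, 21.1%, 15.6% and 24.2% of all genes, near that share except in KO-3. More were found for 3, 3, 1 and 7, or 10.7%, 10.7%, 3.57% and 25%, against 13.7%, 21.9%, 15% and 24.6% of all genes. The median log2 changes were -0.02, -0.06, -0.08 and -0.02. Of their introns 0, 1, 0 and 4 were called higher and 0, 1, 0 and 0 lower, of 71, 90, 75 and 93 tested. Of all introns 1.29%, 1.3%, 0.558% and 1.54% were called higher and 0.175%, 0.304%, 0.155% and 0.429% lower. LBR, the lamin B receptor of the inner nuclear membrane, was lower in each comparison by limma, with -0.27 ± 0.05 for KO-1 (adjusted p = 0.00016), -0.51 ± 0.05 for KO-2 (adjusted p = 1.6e-08), -0.14 ± 0.05 for KO-3 (adjusted p = 0.024) and -0.39 ± 0.05 for KO-4 (adjusted p = 6e-07). TMEM33, a membrane protein of the endoplasmic reticulum, changed by -0.37 ± 0.07 for KO-1 (adjusted p = 0.00035), -0.48 ± 0.07 for KO-2 (adjusted p = 7.4e-06), -0.04 ± 0.07 for KO-3 (adjusted p = 0.73) and -0.51 ± 0.07 for KO-4 (adjusted p = 2.5e-06). LMNA, which encodes lamins A and C, changed by 0.66 ± 0.05 for KO-1 (adjusted p = 3.1e-09), 0.36 ± 0.05 for KO-2 (adjusted p = 1e-05), -0.39 ± 0.05 for KO-3 (adjusted p = 8.4e-06) and 0.70 ± 0.05 for KO-4 (adjusted p = 4e-10). DDX19B, a helicase of mRNA export at NUP214, changed by -0.81 ± 0.09 for KO-3 (adjusted p = 3.5e-07) and passed in no other clone. These 4 were named after their values were seen.

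Promoters were read because many of the genes moved in 1 direction. RefSeq promoter sequences (GRCh38.p14), from 250 bases before to 50 after the start, matched 28 of the 30 genes. The motifs were chosen after the gene results were seen, were searched on both strands, and their counts are descriptions. A gene counted when any of its promoters held the motif. The shares for comparison are over all 27305 genes with a promoter sequence, not only those measured here. CCGGAAG, a motif of ETS factors, occurred in 13 of 28 (46.4%), against 12.2% of the 27305 genes. AAGATGGCG, a motif of YY1, occurred in 4 (14.3%), against 2.1%, and GCGCATGCG, a motif of NRF1, in 3 (10.7%), against 2.3%. CCAAT occurred in 10 (35.7%), against 39.7%, and the E2F motif TTTCGCGC in 0, against 0.6%. Genes with the ETS motif include NUP107, NUP160, NUP50 and NUP35, which fell in KO-2, and also SEC13, which rose there. NUP88, NUP214, POM121 and POM121C carry it as well and did not pass in KO-2. Without the motif, NUP205, NUP155, NUP133, NUP188, NUP153 and NDC1 fell in that clone too. A link between motif and change was not tested. The upstream part of the NUP205 promoter, the gene lower in every comparison over all introns, is shown from chr7:135557667-135557916 on the plus strand, with its CCAAT match in capitals. Its AAGATGGCG match lies past the start and is not printed.
NUP205 promoter: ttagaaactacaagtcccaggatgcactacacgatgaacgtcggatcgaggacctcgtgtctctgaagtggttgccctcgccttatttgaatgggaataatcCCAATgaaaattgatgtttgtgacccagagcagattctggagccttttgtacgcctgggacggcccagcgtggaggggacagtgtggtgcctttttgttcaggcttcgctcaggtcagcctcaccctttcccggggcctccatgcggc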

How the data were processed

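Polyadenylated RNA of 15 libraries was sequenced from a directional kit, per the labels' protocols. The submitters' processing notes name cutadapt 2.0, STAR 2.7.1a and hg38. Which tool counted reads, and the authors' test, is not given in the sources used here. Per the file headers, the authors deposited for each clone and WT 1 line per intron with junction read counts (lists of 3 libraries), inclusion levels as fractions, effective lengths, and p-values with FDR. Every listed intron had at least 20 junction reads in each library.

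Levels were recomputed from the counts and matched the deposited fractions within 5e-04. Retention was tested in R 4.3.3 with a quasi-binomial model whose dispersion was moderated by limma 3.58.1 (squeezeVar) and floored at 1, two-sided, with Benjamini-Hochberg adjustment over all introns tested. An intron needed 10 or more reads of each kind in the mean library. Spliced reads were summed per gene over introns listed in all 4 tables (mean of at least 50), scaled by median ratios, and fitted as log2(count + 0.5) with limma over 15 libraries. This departs from the planned quasi-likelihood count test, because the cells are lists. P-values measure the spread between libraries.

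Introns were annotated with GENCODE 29 (GRCh38), and coordinates are 1-based. The text names every intron called, then the 10 with the highest level in WT (tested in all 4 clones, named for 1 gene, not already called, at most 1 per gene), the 5 largest median rises and falls among the rest, at most 1 per gene, and all 30 genes. Roles and partner lists, like the 30 members, were chosen with earlier results of these data known. The tests were tested on simulated data. Ratios of spliced reads in the 5′ and the 3′ part of a gene, by number of introns, were fitted with limma as log2 values. Alternatives were other filters, tests, scalings, these parts of genes, the authors' FDR and leaving out each library.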

Additional observations from a re-analysis of the deposited data

Results flagged for a closer look

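Spliced reads of 27 nucleoporin genes differed among the 4 clones, by limma contrasts between clones in the fit over 15 libraries. In the Y complex the adjusted p-values were 4e-06 for AHCTF1, 1.5e-07 for NUP107, 6.5e-06 for NUP133, 4.7e-06 for NUP160, 2.9e-05 for NUP37, 0.0011 for NUP43, 0.0027 for NUP85, 0.041 for SEC13 and 9.7e-05 for SEH1L. In the inner ring they were 3.1e-06 for NUP155, 0.00088 for NUP205, 0.00067 for NUP35 and 2.4e-05 for NUP93, and among the membrane proteins 9.7e-05 for NDC1, 2.1e-07 for NUP210, 9.4e-06 for POM121 and 0.0016 for POM121C. For the FG channel they were 4.1e-06 for NUP58, 0.0011 for NUP62 and 0.00031 for NUP98. On the cytoplasmic side they were 3.8e-06 for AAAS, 0.0014 for NUP88, 0.00084 for RAE1 and 0.00059 for RANBP2, and in the basket 0.0073 for NUP153, 0.00081 for NUP50 and 0.012 for TPR. Of all genes tested 75.4% differed in this way.

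Retention differed among the clones for 5 introns by the quasi-binomial test. The adjusted p-values were 0.0098 for NUP160 intron 3 of 35, 0.017 for AAAS intron 1 of 15, 0.036 for the long NUP62 intron, 0.045 for the AAAS intron at chr12:53320693-53321470 and 0.044 for AAAS intron 6 of 15 at chr12:53314442-53314750. The last of these stood at 2.21% ± 0.679 in WT, and at 2.1% ± 1.08, 2.77% ± 0.633, 1.5% ± 0.442 and 3.84% ± 0.92 in KO-1 to KO-4. The AAAS intron at chr12:53320693-53321470 stood at 79% ± 2.62, 81% ± 3.11, 84.3% ± 1.74 and 74.1% ± 2.46 in KO-1 to KO-4. Of all introns tested 6.41% differed.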

How the results depend on the processing

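No paired analysis was possible because the deposited lists carry no replicate numbers. The DESeq2 alternative and the edgeR fit of the plan were not run, since the cells are lists and could not be declared as counts. Counts of nucleoporin introns called higher (4, 6, 2 and 2 in KO-1 to KO-4) changed with the test and the filter. With limma on log2 odds they were 1, 0, 0 and 0, and with at least 50 reads 0, 2, 0 and 0. Without a filter they were 5, 8, 2 and 2. The authors' deposited FDR gave 4, 7, 3 and 6, and centring on the median intron 2, 6, 2 and 2. Among introns with no annotated exon inside, an alternative chosen after seeing the data, they were 2, 1, 2 and 2. Leaving out 1 library gave 1 to 5 in KO-1, 2 to 9 in KO-2, 1 to 2 in KO-3 and 0 to 4 in KO-4. The 5 introns that differed among clones became 0 with no filter and 0 with limma. Counts lower stayed at 0 under every alternative run.

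Counts of genes lower (6, 20, 11 and 21) ranged over the leave-one-out fits from 3 to 6 in KO-1, 16 to 20 in KO-2, 9 to 11 in KO-3 and 18 to 21 in KO-4. Scaling to total spliced reads, added after seeing the data, gave 6, 20, 14 and 19 lower. It also gave 1, 0, 1 and 1 higher, against 2, 1, 2 and 1. Reads of each clone's own table gave 1 higher in KO-1, and leaving out a library 1 to 2 higher in KO-1 and 0 to 1 in KO-2. The largest shift of the median gene under any scaling was -0.0715 (log2), in KO-3 with total reads. TMM scaling and limma-voom, also added later, kept every gene count within 1.5 times.

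Taking only the 3′ or the 5′ part of the introns of a gene was also added after seeing the data. The 3′ part gave 1 gene higher in KO-1, 4, 17, 8 and 18 lower, and the 5′ part 4, 24, 14 and 20 lower.

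Of 222 values of single genes or named introns, 100 passed in at least 1 setting, and these were followed, a limit set after the values were seen. Of these, 10 changed sign in at least 1 setting, and none of the 10 had passed in the fit over all introns. Over the 3′ part NUP98 stood at 0.0838 and 0.0463, AHCTF1 at 0.0373 and 0.00766, and NUP214 at 0.00886 and 0.129 in KO-2 and KO-3, and TPR at 0.0149 in KO-4. Over the 5′ part TPR stood at -0.152 in KO-2 and -0.151 in KO-3, and RANBP2 at -0.564 in KO-3. In KO-3 NUP214 also stood at 0.000123 with no filter, at 0.00419 with introns named for 1 gene only and between -0.0847 and 0.0465 with 1 library left out. RANBP2 in KO-3 stood at -0.0633 with total reads, at -0.00373 in the table of that clone and between -0.00979 and 0.0346 with 1 library left out. Of the other 122, 39 changed sign in at least 1 setting (19 gene values of at most 0.0691 and 20 intron values of at most 0.551, on the log2 scales).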
